A study of Mus musculus with 12 samples.

Results

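Recombination hotspots next to the centromeres of the mouse autosomes were compared between Ankrd31 knockout and wild type testis. The hotspots were all intervals on chromosomes 1 to 19 whose centre lay from 3 to 10 Mb in the mouse build mm10. The knockout list held 1239 of them among 22034 hotspots, and the wild type list held 770 among 13480, which made 2009 list entries of 35514 in both lists. By an overlap of at least 1 bp, 616 hotspots were present in both lists (shared), 623 were in the knockout list alone (knockout-only) and 154 in the wild type list alone (wild-type-only). The window was 7 Mb on each of 19 autosomes, 133 Mb in all and 5.53% of the assembled autosomal length, and it was set against the chromosome interior, the 1702.7 Mb lying 20 Mb or more from both ends.

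The study profiled testis chromatin and recombination in mouse lines, and 2 DMC1 samples of each genotype are used here out of 12 samples. The knockout animals are labelled with the allele Ankrd31 tm1Atot and the wild type animals with the strain C57BL/6JCrl. Animals of both genotypes were adult males and whole testis was taken. The labels do not name the background strain of the knockout line, so differences of strain and of genotype cannot be told apart. The authors deposited 1 hotspot list for each genotype. Whether a list joins the 2 samples is not stated, so no difference between genotypes has a replicate check or a p-value.

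DMC1 is the meiotic recombinase that coats single-stranded DNA beside a double-strand break, and sequencing of that DNA maps where breaks form. In mice the histone methyltransferase PRDM9 places most breaks away from genes, whereas breaks in its absence form at promoters and other open chromatin. ANKRD31 is a protein of the break machinery that binds REC114 and is required for the normal placement and timing of breaks. Mouse autosomes have their centromere at the low-numbered end, behind satellite repeats that are not in the assembly, and crossovers near centromeres are known to be rare and to endanger chromosome segregation.

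Among genes with a listed start site, the promoters of the 5 with the strongest knockout-only hotspots there are shown, and promoters of 3 receptor genes of the same window with no knockout hotspot are given beside them. Each run is the 250 bases before the start site, 5′ to 3′ on the gene's strand, from RefSeq on GRCm38.p6, and capitals mark CpG. Zfp78, a zinc finger gene (chr7:6363058-6363307, plus strand), had a hotspot strength of 668 reads in the knockout list. Tulp4, of the tubby-like family (chr17:6106580-6106829, plus strand), had 590 reads. Steap1, a membrane protein of the STEAP family (chr5:5749318-5749567, minus strand), had 568 reads. Slc25a40, a mitochondrial carrier (chr5:8422588-8422837, plus strand), had 474 reads in the knockout list, and Sephs1, a selenophosphate synthetase family gene (chr2:4881977-4882226, plus strand), had 465. The receptor genes are the olfactory receptor Olfr1336 (chr7:6459976-6460225, plus strand) and the vomeronasal receptors Vmn1r55 (chr7:5147423-5147672, minus strand) and Vmn2r28 (chr7:5493852-5494101, minus strand), each the first of its family by position without a knockout hotspot. The 5 hotspots were knockout-only, so none of them overlapped a wild type hotspot. The hotspot centre lay 580 bp before the listed start site at Zfp78 and 329 bp before it at Sephs1, beyond the bases printed, and within them at the other 3. A listed start site can lie inside the gene as annotated. The annotated start of Zfp78 is at chr7:6362809, ahead of the bases printed, and the hotspot centre lay 81 bp from it. At Tulp4 the centre lay 573 bp from the nearest annotated gene end.
Zfp78: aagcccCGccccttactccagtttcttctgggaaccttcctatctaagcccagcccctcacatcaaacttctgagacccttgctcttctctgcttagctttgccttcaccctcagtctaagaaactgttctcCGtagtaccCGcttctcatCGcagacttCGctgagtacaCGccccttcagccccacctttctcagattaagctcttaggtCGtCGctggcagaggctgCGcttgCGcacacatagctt
Tulp4: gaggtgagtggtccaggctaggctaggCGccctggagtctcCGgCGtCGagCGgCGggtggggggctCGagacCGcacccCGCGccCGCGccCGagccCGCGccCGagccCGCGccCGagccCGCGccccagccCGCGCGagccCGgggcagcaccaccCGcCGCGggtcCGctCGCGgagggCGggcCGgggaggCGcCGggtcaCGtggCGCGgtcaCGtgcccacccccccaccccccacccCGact
Steap1: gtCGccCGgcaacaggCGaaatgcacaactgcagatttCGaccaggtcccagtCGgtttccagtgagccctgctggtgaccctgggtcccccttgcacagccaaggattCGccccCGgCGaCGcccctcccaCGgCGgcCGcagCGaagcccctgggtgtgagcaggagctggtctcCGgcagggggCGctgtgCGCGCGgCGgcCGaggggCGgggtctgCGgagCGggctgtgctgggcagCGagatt
Slc25a40: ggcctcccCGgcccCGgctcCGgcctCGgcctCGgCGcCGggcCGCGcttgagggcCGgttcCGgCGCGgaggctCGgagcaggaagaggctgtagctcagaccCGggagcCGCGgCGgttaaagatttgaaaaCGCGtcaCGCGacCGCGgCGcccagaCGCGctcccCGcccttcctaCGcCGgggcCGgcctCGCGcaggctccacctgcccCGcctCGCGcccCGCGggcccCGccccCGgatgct
Sephs1: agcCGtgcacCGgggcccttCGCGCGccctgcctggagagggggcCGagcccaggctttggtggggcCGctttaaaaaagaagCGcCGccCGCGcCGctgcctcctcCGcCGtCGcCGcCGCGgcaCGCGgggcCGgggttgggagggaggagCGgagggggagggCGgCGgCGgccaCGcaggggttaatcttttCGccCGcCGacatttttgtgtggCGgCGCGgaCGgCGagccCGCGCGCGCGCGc
Olfr1336: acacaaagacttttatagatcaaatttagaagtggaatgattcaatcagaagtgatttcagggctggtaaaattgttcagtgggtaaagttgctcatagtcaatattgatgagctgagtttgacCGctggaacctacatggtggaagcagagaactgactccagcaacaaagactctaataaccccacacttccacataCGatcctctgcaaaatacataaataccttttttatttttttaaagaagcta
Vmn1r55: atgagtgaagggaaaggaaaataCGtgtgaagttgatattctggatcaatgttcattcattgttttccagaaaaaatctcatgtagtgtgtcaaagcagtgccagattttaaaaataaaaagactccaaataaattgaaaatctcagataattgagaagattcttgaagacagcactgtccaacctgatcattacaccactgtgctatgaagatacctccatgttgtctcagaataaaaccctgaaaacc
Vmn2r28: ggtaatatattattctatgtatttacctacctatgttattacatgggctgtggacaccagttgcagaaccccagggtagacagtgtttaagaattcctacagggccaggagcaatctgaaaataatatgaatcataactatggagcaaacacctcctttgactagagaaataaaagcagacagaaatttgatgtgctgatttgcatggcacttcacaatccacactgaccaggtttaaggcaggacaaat
The 5 promoters with a hotspot held 10, 40, 24, 40 and 40 CpG in the order shown, and the 3 receptor promoters held 2, 1 and 0. G and C made up from 53.6% to 82.4% of the promoters with a hotspot and from 35.2% to 39.6% of the receptor promoters.

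Hotspots were somewhat denser next to the centromere than in the interior, in both genotypes. The knockout list had 9.32 hotspots per Mb in the window (exact Poisson 95% interval 8.80 to 9.85) and 8.37 in the interior (8.23 to 8.51), a ratio of 1.11 (1.05 to 1.18). The wild type list had 5.79 per Mb in the window (5.39 to 6.21) and 5.09 in the interior (4.99 to 5.20), a ratio of 1.14 (1.06 to 1.22). From 6 to 10 Mb alone the ratio was 1.05 in the knockout (0.970 to 1.13) and 1.06 in the wild type (0.964 to 1.18), and from 10 to 15 Mb the density was 8.79 per Mb in the knockout and 5.79 in the wild type. In each list the window was the denser zone on 13 of 19 chromosomes. Protein-coding genes numbered 8.0 per Mb over the whole window and 8.58 in the interior, but they were unevenly spread. There were 10.1 per Mb from 3 to 4 Mb, 12.5 from 4 to 5 Mb, 9.32 from 5 to 6 Mb and 3.79 from 9 to 10 Mb. The part of gene density in hotspot density was not tested. Knockout over wild type hotspot numbers stood at 1.61 in the window and 1.64 in the interior, and the ratio of these was 0.979 (0.892 to 1.08). These and all later intervals of counts, shares and single hotspots cover counting error only. Those of medians cover the spread over hotspots. Intervals over hotspots take them as independent, ignore grouping by chromosome and hold no difference between animals. Densities are per assembled base, without a measure of mappable length.

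**Figure D1:**
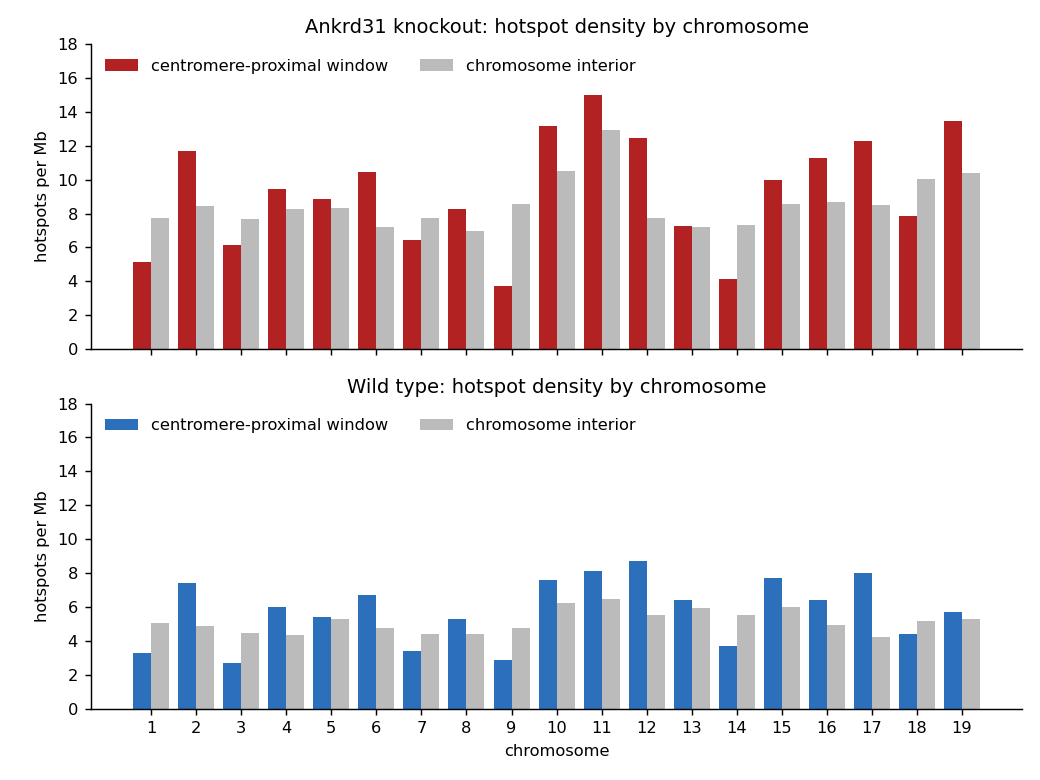
Hotspots per Mb (y axis) in the centromere-proximal window (coloured bars) and in the chromosome interior (grey bars) on each of the 19 autosomes (x axis), for the knockout list above and the wild type list below. In the knockout panel the window bar runs from 3.71 per Mb on chromosome 9 to 15 on chromosome 11.

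The density of the window varied widely between chromosomes. On chromosome 12 it was 1.60 times as dense as the interior in the knockout list and 1.58 times in the wild type list. On chromosome 17 the ratios were 1.45 in the knockout and 1.88 in the wild type, and on chromosome 2 they were 1.39 in the knockout and 1.52 in the wild type. Chromosomes 1, 3, 7, 9, 14 and 18 had windows sparser than their interior in both lists. Chromosome 9 stood at 0.435 of its interior density in the knockout and 0.601 in the wild type, chromosome 14 at 0.564 in the knockout and 0.670 in the wild type, and chromosome 3 at 0.801 in the knockout and 0.606 in the wild type. On chromosome 14 neither list had a hotspot over the first 4.355 Mb of assembled sequence, from 3 to 7.355 Mb, which holds 71 annotated protein-coding genes. The next longest stretch without a hotspot of either list was 1.91 Mb on chromosome 7, with 15 protein-coding genes.

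The hotspot closest to a centromere lay on chromosome 12 at chr12:3049066-3050564, shared by both lists, with a strength of 155 in the knockout and 164 in the wild type. Strength is the reads of a hotspot minus its background, as deposited. The strongest knockout hotspot of the window lay close by at chr12:3109124-3110798, with 1535 in the knockout and 1713 in the wild type. Its nearest gene was Rab10, a small GTPase of membrane traffic, 137467 bp away. Relative strength is strength over the median of autosomal shared hotspots of the same list, which was 151 in the knockout and 182 in the wild type. On this scale the site had a log2 ratio of knockout over wild type of 0.11 (0.01 to 0.21).

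The strength of window hotspots was close to that of the interior in both lists, but it differed by class. The knockout median was 112 (103 to 121) in the window and 103 (101 to 105) in the interior, and the wild type median was 152 (140 to 180) in the window and 149 (145 to 154) in the interior. The mean strength was 172 ± 168 in knockout window hotspots (SD, n = 1239) and 293 ± 364 in wild type window hotspots (SD, n = 770). The window held 6.44% of the summed autosomal strength of the knockout list over 2102.3 kb of hotspots, and 6.27% of that of the wild type list over 1343.7 kb. Knockout-only hotspots had a median of 87.0 in the window and 73.0 in the interior. Shared hotspots had 143 in the window and 157 in the interior when measured in the knockout, and 206.5 in the window and 177 in the interior when measured in the wild type.

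The values beside the limit of 10 Mb were as follows. From 9 to 10 Mb, just inside, the knockout list had 160 hotspots of median strength 121 and the wild type list 110 of median 165.5. From 10 to 11 Mb, just outside, the knockout list had 175 of median 132 and the wild type list 121 of median 186.

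Shared hotspots next to the centromere had a lower relative strength in the knockout than those of the interior. The median log2 ratio of knockout over wild type was -0.24 in the window (-0.31 to -0.14, n = 616) and 0.05 in the interior (0.02 to 0.08, n = 7601), a difference of -0.29 (-0.38 to -0.20). Of the 616 hotspots, 372 (60.4%) were below 0, against 47.8% in the interior and 50.5% over all autosomes. In bulk testis, fewer cells with a break at a site and less DMC1 signal per cell cannot be told apart. Over all autosomes 15.9% of shared hotspots were more than 2-fold lower in the knockout and 12.4% more than 2-fold higher. In the window 129 hotspots, or 20.9% (17.8 to 24.4), were more than 2-fold lower, against 14.1% in the interior. Increases past 2-fold were rarer there, with 55 hotspots or 8.93% (6.80 to 11.5) in the window against 13.8% in the interior. Window sites were stronger in the wild type than interior ones, and strong wild type sites had lower ratios in both zones, so the ratio was also taken within 20% classes of wild type strength. The window median was the lower one in all 5 classes: 0.61 in the window and 0.71 in the interior for the weakest, -0.30 in the window and 0.03 in the interior for the middle, and -0.81 in the window and -0.72 in the interior for the strongest.

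**Figure D2:**
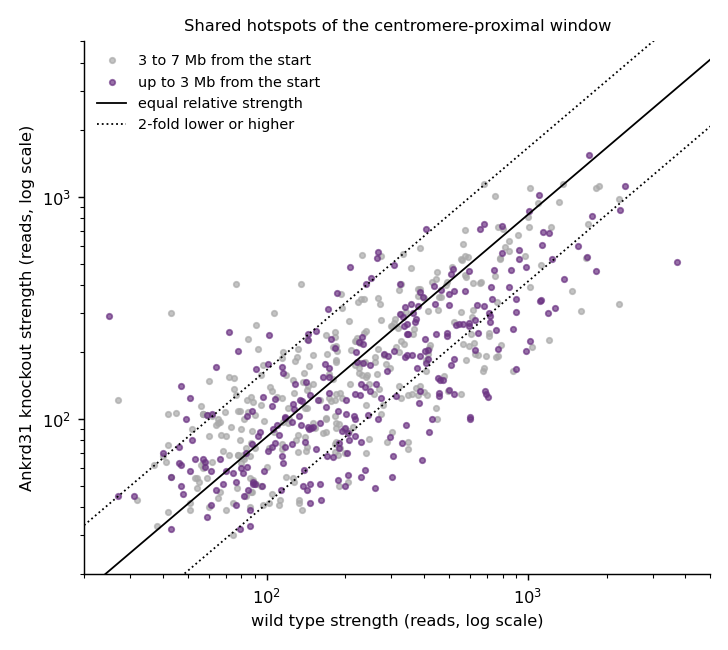
Strength in the knockout list (y axis, reads, log scale) against strength in the wild type list (x axis, reads, log scale) for the 616 shared hotspots of the window, each point 1 hotspot, with those in the 3 Mb nearest to the start of assembled sequence in purple and the rest in grey. The solid line marks equal relative strength and the dotted lines 2-fold differences, and 129 points lie under the lower dotted line against 55 above the upper one.

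The 6 hotspots with the largest decreases each lay inside a gene. The strongest wild type hotspot of the window, in Atad2b, a bromodomain ATPase gene (chr12:4973049-4975497), measured 510 in the knockout and 3738 in the wild type, a log2 ratio of -2.60 (-2.74 to -2.47). A hotspot inside Tulp4 (chr17:6154893-6156813) measured 328 in the knockout and 2241 in the wild type, with a log2 ratio of -2.50. Both ranked among the 10 strongest wild type hotspots of the window and neither among the 10 strongest of the knockout. Atp6v1h, a subunit of the vacuolar proton pump, had 65 in the knockout and 392 in the wild type (log2 ratio -2.32). Elavl1, an RNA-binding protein, had 100 in the knockout and 601 in the wild type (-2.32). On chromosome 19, Lrp5, a Wnt co-receptor, had 102 in the knockout and 602 in the wild type (-2.29), and Grk2, a receptor kinase, had 125 in the knockout and 706 in the wild type (-2.23). These 6 were chosen for their decrease among the 464 shared hotspots at or above the median strength of either list, so their values are a description. Those in Atp6v1h and Elavl1 met this limit through the wild type list alone, the knockout median being 102. The share of all shared window hotspots that lie inside genes is not given here, so their place inside genes has no baseline.

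The strongest knockout sites of the window spanned decreases and increases. A chromosome 8 hotspot (chr8:6950957-6952695) far from any gene had 1143 in the knockout and 1360 in the wild type, a log2 ratio of 0.02 (-0.10 to 0.13). Near Rbfox1, a splicing regulator, the second strongest wild type hotspot had 1122 in the knockout and 2363 in the wild type (-0.81). In C9, a terminal complement component, a hotspot had 1094 in the knockout and 1817 in the wild type (-0.46). The site nearest to Igfbp3, which binds insulin-like growth factors, lay 450840 bp from that gene. It had 1146 in the knockout and 680 in the wild type (1.02). Sites with the same nearest gene could differ in direction, though they lay far from it and from each other. Of 2 hotspots nearest to Celf2, an RNA-binding protein gene, that at chr2:8241758-8243418 was 846247 bp away. It had 1010 in the knockout and 747 in the wild type (0.70). The other, at chr2:7636828-7638500 and 241323 bp from Celf2, had 975 in the knockout and 2228 in the wild type (-0.92).

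The 6 largest relative increases, chosen for their increase among the same 464 shared hotspots, included 3 hotspots at gene ends. Of all 616 shared hotspots of the window 16 lay at a gene end. Of these 16, 4 were more than 2-fold higher and 4 more than 2-fold lower. The 6 increases all met the limit on strength through the knockout list alone, the wild type median being 149, so their values are a description. Lypla1, a depalmitoylating enzyme (chr1:4807109-4808327), had 291 in the knockout and 25 in the wild type, a log2 ratio of 3.81 (3.15 to 4.47). Cplane1, a ciliogenesis gene, had 298 in the knockout and 43 in the wild type (3.06), and Eef2kmt, a methyltransferase of an elongation factor, had 245 in the knockout and 72 in the wild type (2.04). The other 3 lay outside genes. The site nearest to Apob, an apolipoprotein gene 1038714 bp away, had 403 in the knockout and 76 in the wild type (2.68). The site 1082 bp from Matn3, a cartilage matrix gene, had 122 in the knockout and 27 in the wild type (2.45), and the site nearest to Pabpc6, a poly(A)-binding protein gene, had 406 in the knockout and 135 in the wild type (1.86).

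The shared median was lower from 3 to 6 Mb than in the rest of the window. In steps of 1 Mb from the start of assembled sequence, the median log2 ratio was -0.50, -0.40, -0.40, -0.29, -0.19, 0.06 and -0.08, and it was 0.03 from 10 to 15 Mb and 0.09 from 15 to 20 Mb. The intervals of neighbouring 1 Mb steps overlapped, with -0.74 to -0.15 in the first step and -0.33 to 0.16 in the last. From 3 to 6 Mb the median was -0.43 (-0.55 to -0.25, n = 277) and from 6 to 10 Mb -0.08 (-0.22 to 0.02, n = 339). Values near 0 were reached from 8 Mb on. In the last 7 Mb of the autosomes, the end away from the centromere, the median was lower still, -0.79 (-0.92 to -0.62, n = 422), which is below the value of the window.

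By chromosome, the shared median was lower in the window than in the interior on 15 of 19, the exceptions being 5, 9, 12 and 13. It was below 0 in the window on 16 of 19 chromosomes, and in the interior on 7 of 19. Chromosome 19 had the lowest value, -0.97 (-1.70 to -0.27, n = 21) in the window and 0.13 in the interior, with the strongest site of both lists in Hnrnpul2, an RNA-binding protein gene, at 376 in the knockout and 1472 in the wild type (-1.70). Chromosome 7 had -0.83 (n = 11) in the window and 0.08 in the interior, and chromosome 15 had -0.48 (n = 38) in the window and 0.29 in the interior. Chromosome 12 had 0.26 (0.06 to 0.70, n = 48) in the window and 0.21 in the interior. It also held strong wild type sites that were lower in the knockout, the one in Atad2b and one 2583 bp from Asxl2, a chromatin regulator, at 869 in the knockout and 2247 in the wild type (-1.10).

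**Figure D3:**
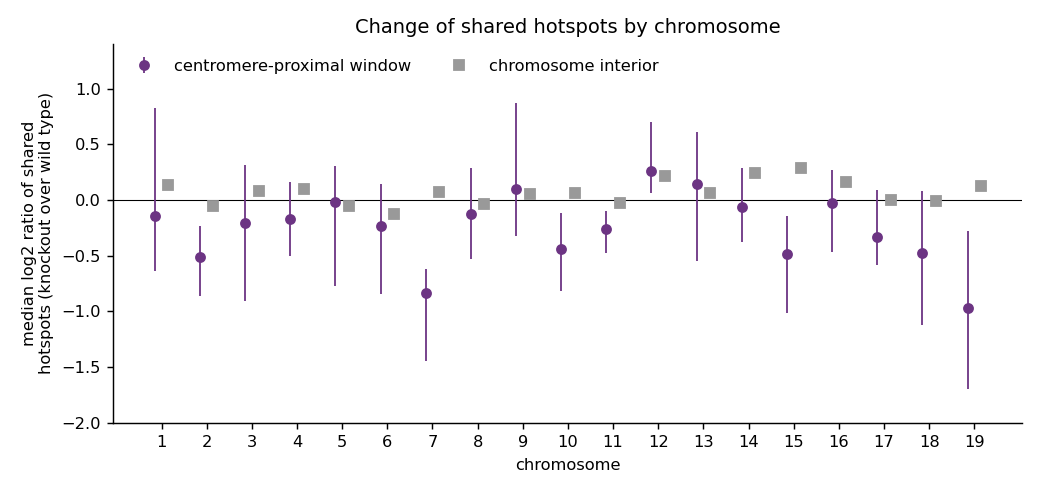
Median log2 ratio of knockout over wild type relative strength of shared hotspots (y axis) on each autosome (x axis), with purple points and 95% intervals for the window and grey squares for the interior. The window point lies below the interior square on 15 of 19 chromosomes and is lowest on chromosomes 19 (-0.97) and 7 (-0.83).

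Wild type hotspots of the window were absent from the knockout list more often than those of the interior. Over all autosomes 15% of wild type hotspots had no knockout partner. In the window this was 20% (17.2 to 23.0), 154 of 770, and in the interior 12.4%, a difference of 7.63 percentage points (4.72 to 10.5), and the share was higher in the window on 15 of 19 chromosomes. It was largest on chromosome 7, at 54.2% (13 of 24), and on chromosome 19, at 47.5% (19 of 40). In steps of 1 Mb from the start of assembled sequence it was 27.6%, 23.9%, 15.4%, 22.5%, 14.9%, 14.2% and 19.1%, not a smooth course, and from 10 to 15 Mb it was 10.9%. In the last 7 Mb of the autosomes it was 42.7% (39.1 to 46.4), above the window. The absent sites had a median strength of 66.0, and the share was also higher in the window within classes of like wild type strength. In the weakest 20% of wild type hotspots 53.7% were absent in the window and 36.9% in the interior. In the next 20% the share was 32.7% in the window and 16.6% in the interior, and in the middle 20% it was 13.4% in the window and 6.70% in the interior. In the strongest 20% absence was rare in both zones, with 1 of 158 in the window and 2 of 1759 in the interior.

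The strongest wild-type-only hotspot lay inside Epc1, a subunit of a histone acetyltransferase complex, with a strength of 625 in the wild type list. The next were weaker: 314 in Pdhb, a pyruvate dehydrogenase subunit, 272 in Hspa14, an Hsp70 family gene, and 262 in Adam22, a neuronal membrane protein gene. Calml3, a calmodulin-like gene, was nearest to one of 233, and Wdr37 held one of 204. Naa40, which acetylates the N-terminus of histones, was nearest to one of 194, and Celf2 held one of 151. At a gene end lay 3 of the 154 wild-type-only hotspots (1.95%), near the 2.42% of the interior and the 2.73% over all autosomes.

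Knockout-only hotspots made up slightly more of the knockout list in the window than in the interior. Over all autosomes 47.4% of knockout hotspots had no wild type partner. In the window it was 50.3% (47.5 to 53.1) and in the interior 46.7%, a difference of 3.62 percentage points (0.717 to 6.52), with a higher window share on 11 of 19 chromosomes. Leaving out chromosome 19, where 77.7% of knockout hotspots were knockout-only, reduced the difference to 1.45 points. At the strong end of the list the difference was wider: among the strongest 20% of autosomal knockout hotspots, 33.8% (28.4 to 39.5) were knockout-only in the window, 101 of 299, and 10.9% (9.81 to 12.1) in the interior, 315 of 2882. In the weakest 20% the order turned, with 66.8% in the window and 76.9% in the interior. Background made up 7.25% of the reads in knockout window hotspots and 6.24% in knockout interior hotspots, and in the wild type list it made up 4.47% in the window and 4.78% in the interior. Its part in these shares was not tested.

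About as many knockout-only hotspots lay at gene ends as elsewhere, and shared ones seldom did. Over all autosomes 47% of knockout-only hotspots were centred at a gene end, taken as 1 kb to either side of the start or finish of a protein-coding gene. In the window 320 of 623 did, or 51.4% (47.4 to 55.4), against 47.0% in the interior, and the window share was the higher one on 10 of 19 chromosomes. Of the window length 2.90% lies within 1 kb of such an end. Of the shared hotspots 2.60% were at a gene end by their knockout interval, against 2.92% in the interior. In the wild type list 15 of 770 hotspots were, or 1.95%, against 2.7% in the interior. The difference of 4.39 percentage points between window and interior became 1.79 without chromosome 19. The share was 61.0% from 3 to 6 Mb and 42.7% from 6 to 10 Mb, and the second of these is below the interior. Each step of 1 Mb from 3 to 6 Mb also held more protein-coding genes than each from 6 to 10 Mb.

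Counted by gene, the difference was larger. Over all autosomes 25% of protein-coding genes carried such a hotspot. In the window 354 of 1064 genes did, or 33.3% (30.4 to 36.2), against 24.2% in the interior, and the share was higher in the window on 15 of 19 chromosomes. A wild type hotspot was at the end of 16 window genes, or 1.50%, against 1.70% in the interior. On chromosome 5, 26 of 40 window genes had such a knockout-only hotspot (65.0%), and on chromosome 14, 7 of 90 did (7.78%). The share was 31.3% (27.6 to 35.1) from 10 to 15 Mb and 28.0% from 15 to 20 Mb, so it did not end with the window, and it was 15.7% in the last 7 Mb of the autosomes. With all annotated genes in place of protein-coding ones, the difference between window and interior was 5.46 percentage points, against 9.09.

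These hotspots were also stronger than their counterparts in the interior. Knockout-only hotspots at gene ends had a median strength of 117.5 (99.0 to 131) in the window and 88.0 (85.0 to 90.0) in the interior, higher in the window on 17 of 19 chromosomes. The median was 123 (103 to 140) from 10 to 15 Mb and 105 from 15 to 20 Mb, so the higher strength was not limited to the window. Away from gene ends knockout-only hotspots had 71.0 in the window and 64.0 in the interior. The strongest was at Plag1, a zinc finger transcription factor (chr4:3937335-3939805), with 692, followed by Zfp78, Tulp4 and Steap1. Mybl1, the transcription factor A-MYB of male meiosis, had 538 (chr1:9699326-9701422). Proser2 had 461 and Zfp628 had 430. Among the 10 strongest knockout-only hotspots only that in Zbtb2, a zinc finger repressor gene (chr10:4385516-4388550), had its centre beyond the 1 kb limit, at 1075 bp, with a strength of 638.

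**Figure D4:**
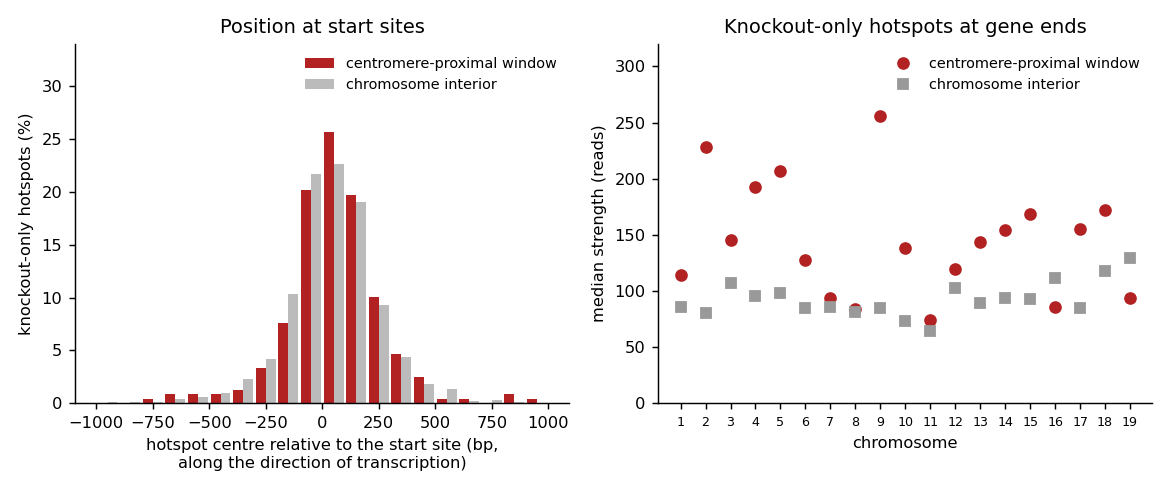
Left, position of the centre of knockout-only hotspots relative to the nearest start site (x axis, bp along the direction of transcription; y axis, % of hotspots at a start site) in the window (red) and in the interior (grey). Right, median strength in reads (y axis) of knockout-only hotspots at gene ends on each autosome (x axis), where the window point lies above the interior square on 17 of 19 chromosomes.

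Most of the gene ends that could be placed were starts. RefSeq start sites with a strand were found for 838 of the 1064 window genes, and 247 of the 320 gene-end hotspots could be placed with them. Of these 238 were at a start site (96.4%, 93.2 to 98.3) and 9 at the other end alone, and in the interior 96.0% were at a start site. The centre lay at a median of 49.5 bp downstream of the start in the window and 35.5 bp in the interior, and 194 of the 238 were within 250 bp. Steap1 and Tulp4 carried both kinds of site. At Tulp4 the start site had a knockout-only hotspot of 590, and 49600 bp inside the gene lay the shared site with 328 in the knockout and 2241 in the wild type. At Steap1 the start had a knockout-only hotspot of 568, and a shared site inside the gene (chr5:5739611-5741877) had 534 in the knockout and 1681 in the wild type (-1.39).

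Start sites with and without a hotspot differed in base composition in the same direction as the printed promoters. The printed promoters without a hotspot are all of receptor genes, which were 46 of the 1064 window genes. The median share of G and C was 62.8% at window start sites with a knockout-only hotspot and 52.4% at those without a knockout hotspot. In the 250 bases before the start, the median CpG count was 19 at the 340 window start sites with a knockout-only hotspot within 1 kb and 5 at the 731 with no knockout hotspot, against 10 over all 20085 autosomal start sites. The GC box, searched as GGGCGG on both strands, was present in 68.5% of the window promoters with a hotspot, in 32.7% of those without and in 43.4% of all autosomal promoters. CCAAT, on both strands, was about as frequent in each group, at 35.0%, 32.6% and 35.3% in the same order. The ETS letters CCGGAAG, on both strands, stood at 14.1% with a hotspot, 7.80% without and 9.21% over all. None of these letter runs holds another of them. The interior showed the same contrast, with a median of 19 CpG with a hotspot and 6 without, and the GC box in 70.4% with a hotspot and 33.3% without. Within each class of CpG count the window share was the higher one, though with 0 to 4 CpG the intervals overlapped. The units are start sites, and a gene can have more than 1: the 340 window sites with a hotspot belong to 282 genes. At start sites with 15 or more CpG, 56.3% (51.29 to 61.15) had a knockout-only hotspot in the window and 47.9% (46.55 to 49.28) in the interior. With 5 to 14 CpG the share was 29.2% (24.42 to 34.36) in the window and 22.5% (21.24 to 23.8) in the interior. With 0 to 4 CpG it was 3.60% (1.88 to 6.21) in the window, 12 of 333, and 2.39% (1.98 to 2.87) in the interior.

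Gene families of the window differed in how often they had a hotspot, beside 33.3% of all window genes and 25% of all autosomal genes. Olfactory receptor genes had no knockout-only hotspot at an end in any of 10 window genes, Vmn1r vomeronasal receptors in none of 14, and Vmn2r receptors in 1 of 22, Vmn2r29 with a strength of 154. Zinc finger genes with a Zfp symbol had one in 14 of 24, among them Zfp524 with a strength of 173, Zfp438 with 172, Zfp263 with 126 and Zfp444 with 94. Neighbouring genes can share a hotspot, as Zfp784 and Zfp580 do with 1 of 90. Of the break machinery genes, 2 of 13 autosomal ones lie in the window. Both carried a knockout-only site at a gene end: Hormad2, a protein of the unsynapsed chromosome axis, with 90, and Gm960, the gene of the SPO11 partner TOPOVIBL, with 177. Of 29 recombinase and synapsis genes 1 lies there, Mcmdc2, needed for meiotic recombination, and it had a shared hotspot at an end, of 422 in the wild type list.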

How the data were processed

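DMC1 single-stranded DNA sequencing was done on adult testis, and the deposited hotspot lists were used, 1 for each genotype. Tools listed in the submitters' processing notes are BWA, Bowtie2, MACS2 and CASAVA, with the build mm10 and no versions or roles. Pooling of animals is not stated in the sources used here. Per the file headers, the authors gave each hotspot a read count, a background signal, a strength as a signal value, the strength as a percent of the list, and a rank score. Strength equalled the read count minus the background in 100% of autosomal hotspots of both lists. Autosomal hotspots held 3538576 reads in the knockout list and 3783556 in the wild type list, and those of the window 229878 in the knockout list and 236570 in the wild type list. No expression of Ankrd31 was measured here, so the genotype labels could not be checked. H3K4me3 and input samples were not analysed here.

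Hotspots were paired in Python at an overlap of at least 1 bp, and every pair was 1 to 1. The number of pairs was checked with bedtools 2.31.1. Tables were handled in Python 3.11.15 with pandas 2.3.3, numpy 2.4.6 and scipy 1.17.1. Shares have exact Clopper-Pearson intervals, densities exact Poisson intervals and medians order-statistic intervals, all at 95%, and the calculations were checked on simulated data. Intervals of ratios of counts and of differences in shares use a normal approximation. Those of differences in medians join the interval widths of both medians. Genes came from RefSeq on GRCm38.p6, and gene ends were 1 kb to either side of the start or finish of a protein-coding gene, judged by the hotspot centre. The 105 protein-coding genes listed below 3 Mb, where the assembly has no sequence, were left out, which leaves 20560. Chromosome lengths of mm10 were entered by hand from memory of the assembly. Start positions are as listed, and whether they count from 0 or 1 is not stated.

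The members, gene lists and rules were chosen with earlier results of these data known. Hotspots were named by rule: the 10 strongest of each list and of the knockout-only class, with and without a gene end, the 8 strongest wild-type-only, the 6 largest relative increases and decreases, the strongest of a chromosome, and the one nearest to a centromere. Alternatives changed the window, the interior, the overlap, the gene-end distance, the gene set, the strength measure and the chromosomes used.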

Additional observations from a re-analysis of the deposited data

How the results depend on the processing

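Of 107 alternative values, 92 stayed within the interval of the reported one, 14 moved beyond it and 1 turned direction. A turn was called only where the reported interval left out no difference. The ratio of knockout over wild type hotspot numbers, reported as 0.979, was thus within its interval at 1.03 with hotspots at or above the list median. Most moves came from splitting the window. From 3 to 6 Mb, the window over interior density was 1.20 in the knockout and 1.23 in the wild type, the shared median differed from the interior by -0.49, the share over 2-fold lower by 11.2 percentage points and the gene-end share of knockout-only hotspots by 14 points. From 6 to 10 Mb these were 1.05 for the knockout density, 1.06 for the wild type density, -0.14 for the shared median, 3.30 points for the share over 2-fold lower and -4.30 points for the gene-end share, which turned direction. With hotspots at or above the median of their list, the knockout density ratio was 1.18 and the difference in knockout-only share 12.8 points, and with the knockout list limited to the number of wild type hotspots that difference was 10.6 points. With all annotated genes, the difference in genes with a knockout-only hotspot was 5.46 points. With chromosomes weighted equally it was 13.2 points, and the log2 ratio of strength at gene ends was 0.64. Leaving out each chromosome in turn gave a difference in the shared median from -0.32 to -0.25, in the wild-type-only share from 6.02 to 8.33 points, in the knockout-only share from 1.45 to 4.49 points and in the gene-end share from 1.79 to 5.70 points, the lowest of the last 3 without chromosome 19. The cause of these moves was not tested. Classes by the mean of both strengths for shared change, classes of wild type strength for the wild-type-only share, and the leaving out of each chromosome in turn were chosen after seeing the data. No paired analysis was possible because 1 list for each genotype holds no replicate values. Weak hotspots are limited by reads: the weakest autosomal hotspot had a strength of 16 in the knockout list and 18 in the wild type list.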

Other observations

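Hotspot intervals of the window differed in width by class. Knockout-only hotspots averaged 1777 ± 405 bp in the window (SD, n = 623) and 1685 ± 363 bp in the interior (SD, n = 6650). Shared hotspots, by their knockout interval, averaged 1616 ± 284 bp in the window (SD, n = 616) and 1604 ± 245 bp in the interior (SD, n = 7601).

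The 16 shared hotspots of the window at a gene end spread widely, with log2 ratios from -1.60 to 3.81 and a median of -0.46 (-1.11 to 2.04). Lypla1, Cplane1 and Eef2kmt were among those that were higher in the knockout. Of the 16, 11 (68.8%) were below 0, against 60.4% of all shared hotspots of the window. Among the 228 shared hotspots of the interior at a gene end, 53.95% were below 0.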
